A study of Arabidopsis thaliana with 11 samples.

Results

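Cytokinins are plant hormones that promote cell division, and 8 genes at the 2 ends of their life in the cell are described here across seeds of Arabidopsis thaliana. 7 of them encode adenylate isopentenyltransferases: IPT1 (AT1G68460), IPT3 (AT3G63110), IPT4 (AT4G24650), IPT5 (AT5G19040), IPT6 (AT1G25410), IPT7 (AT3G23630) and IPT8 (AT3G19160). The other is the cytokinin oxidase gene CKX2 (AT2G19500). They were picked by identifier and role from the 28523 genes of each deposited table, with earlier results of these data known. Of the 8 genes, 4 had at least 1 read that could be assigned to a parent and 3 had at least 100, while 17914 of all 28523 genes had a read.

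Adenylate isopentenyltransferases join an isopentenyl group to an adenine nucleotide, the first step of cytokinin synthesis. Cytokinin oxidases such as CKX2 cleave the side chain and end the hormone's activity. In the seed, cytokinin is linked to the growth of the endosperm, the nutritive tissue that feeds the embryo. IPT4 and IPT8 are known from the chalazal endosperm, and CKX2 is known as a target of the HAIKU pathway, which controls endosperm growth and seed size.

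RNA came from 11 libraries of seeds crossed between the ecotypes Columbia (Col) and Landsberg (Ler), 7 to 9 days after pollination, with the mother written first in each cross. Wild-type pure endosperm had 3 libraries, replicates 1 and 2 of which were Col × Ler and replicate 3 was Ler × Col. Wild-type full endosperm had 1 library of each direction, Col × Ler as replicate 1, and wild-type embryo had the same 3 crosses as pure endosperm. The remaining 3 libraries were pure endosperm of mutant crosses with 1 library each, namely a dme-2 mother, heterozygous and Columbia-gl, with a wild-type Landsberg father, a fie-1 mother, heterozygous and Landsberg, with a wild-type Columbia-0 father, and a wild-type Landsberg mother with a met1-6 father, homozygous, labelled Columbia-0 but Col-gl in the growth protocol. DME (DEMETER) removes DNA methylation, FIE is a subunit of the Polycomb complex that silences genes through histone methylation, and MET1 maintains DNA methylation. Heterozygous mothers also yield seeds with a wild-type maternal allele, and whether seeds were sorted, and how pure and full preparations differ, is not given in the sources used here. The letters LCM stand in the titles of replicate 1 of pure endosperm and of embryo.

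Libraries held 358142 to 4828301 reads assigned to a parent. A level below is in CPM, the reads of a gene from both alleles scaled to the total of such reads in its library. Since only reads that cover a difference between Col and Ler are counted, levels of different genes cannot be compared, and a gene at 0 may lack a usable difference. The mutated genes did not check the labels: DME had 60.7 CPM in dme and 110 to 246 CPM in wild type, but also 45.4 CPM in fie and 71.9 CPM in met1, FIE had 0 reads in every library, and MET1 had at most 12 reads in any. Markers set the libraries apart. Of 17 seed coat genes, 13 had a read (AHA10, MUM4, TT12 and TT2 had none), and they summed to 620 to 3887 CPM in wild-type pure endosperm, 8785 to 12051 in full endosperm, 80.6 to 668 in embryo, 46817 with a dme mother, 22721 with a fie mother and 11830 with a met1 father. Of 10 endosperm genes, 8 had a read (MEA and PHE1 had none), and without the extensin-like EPR1 they summed to 1140 to 5076 CPM in pure endosperm, 283 to 534 in full endosperm, 41.1 to 160 in embryo, 418 with a dme mother, 408 with a fie mother and 287 with a met1 father. Of 14 embryo genes, 12 had a read (CUC1 and CUC3 had none), summing to 71.5 to 120 CPM in pure endosperm, 145 to 301 in embryo, 164 to 180 in full endosperm, 245 in dme, 384 in fie and 163 in met1, where the epidermal gene ATML1 gave 230 CPM of the dme sum and 378 CPM of the fie sum. The endosperm sums were made up of different genes. ZOU and ALE1 gave 1128 to 5043 CPM of them in pure endosperm and 263 and 476 CPM in full endosperm. They gave 51.8 CPM in dme and 75.7 CPM in fie, where AGL62 gave 123 and 95.6 CPM. In these bulk samples, fewer cells of a type and less RNA per cell cannot be told apart.

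Among the synthesis genes, IPT6 carried most of the reads and was a transcript of wild-type endosperm. Pure endosperm replicates 1, 2 and 3 had IPT6 levels of 187, 1135 and 1037 CPM. The full endosperm libraries had 1639 and 1071 CPM. Embryo replicates 1, 2 and 3 had 0, 15.9 and 30.9 CPM, from 0, 39 and 25 reads. Every endosperm library of wild type lay above every embryo library, and within pure endosperm the LCM-titled replicate 1 was the lowest. Pure endosperm averaged 786 ± 521 CPM (SD, n = 3), full endosperm 1355 ± 402 CPM (SD, n = 2) and embryo 15.6 ± 15.5 CPM (SD, n = 3). Pooled over libraries, pure endosperm stood 62.2-fold above embryo (counting interval 48.6 to 80.8). The fitted log2 difference was 6.37 ± 0.53 (SE), with an adjusted p of 1.0e-08 in edgeR's quasi-likelihood test after Benjamini-Hochberg adjustment over 12595 genes, and IPT6 rose with endosperm in all 16 alternative analyses. Embryo libraries that held more EPR1, 4.94, 1220 and 8781 CPM in replicates 1, 2 and 3, held more IPT6, and the part of endosperm RNA in the embryo reads of IPT6 was not tested. Between full and pure endosperm the log2 difference of IPT6 was -0.03, with an interval of -0.90 to 0.84 and an adjusted p of 0.994.

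**Figure D1:**
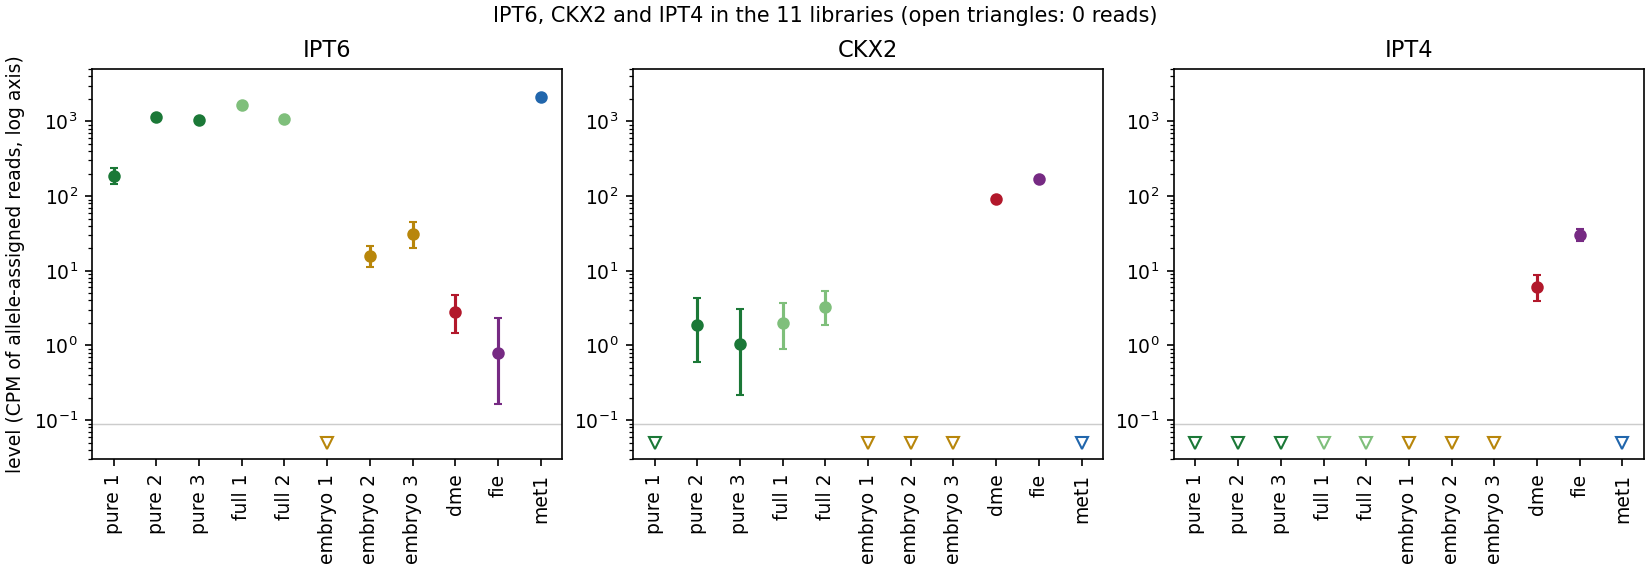
Level of IPT6, CKX2 and IPT4 (log axis, CPM of allele-assigned reads) in each of the 11 libraries, with exact 95% Poisson intervals for counting error and open triangles for libraries with 0 reads. IPT6 is high in wild-type endosperm and in the met1 library and is at 2.78 and 0.797 CPM in the dme and fie libraries, where CKX2 is at 91.5 and 169 CPM and IPT4 at 5.99 and 30.5 CPM.

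Both parental alleles of IPT6 were read close to their genome dose in wild-type endosperm. The endosperm carries more maternal than paternal genome copies, and equal use of each copy gives a maternal share of 66.7%. The maternal share of IPT6 reads was 70.1% (exact interval 57.7% to 80.7%), 62.4% (60.7% to 64.2%) and 67.6% (65.9% to 69.3%) in pure endosperm replicates 1, 2 and 3, or 66.7% ± 3.93 (SD, n = 3). In full endosperm it was 61.4% (60.3% to 62.5%) and 72.2% (71.0% to 73.4%) in replicates 1 and 2. The Col × Ler libraries thus lay on both sides of the dose and both full libraries and pure replicate 2 departed from it by more than counting error, the full libraries in opposite directions. In a model with parent and ecotype terms, the log2 departure from the dose for pure endosperm was -0.02 ± 0.18 (SE, adjusted p = 1). For full endosperm it was 0.02 ± 0.19 (SE, adjusted p = 0.958). Of all genes tested, 4.95% were called in the former and 20.3% in the latter, and IPT6 was not among them. The log2 ratio of the Col over the Ler allele of IPT6, with parent held constant, was -0.22 ± 0.13 (SE, adjusted p = 0.291), where 18.5% of genes were called. In embryo, where equal use gives 50%, the maternal reads were 19 of 39 in replicate 2 and 18 of 25 in replicate 3, with a log2 departure of 0.64 ± 0.43 (SE, adjusted p = 1; 0.955% of genes called).

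IPT6 was near 0 in the endosperm of dme and fie mothers. The dme library had 13 reads and 2.78 CPM (counting interval 1.48 to 4.75). The fie library had 3 reads and 0.797 CPM (0.164 to 2.33). All wild-type endosperm libraries, from 187 CPM upward, lay above both, and the embryo libraries, at 0 to 30.9 CPM, spanned them. The library of the same cross direction as dme, pure endosperm replicate 2, had 1135 CPM, and that of the same direction as fie, replicate 3, had 1037 CPM. Pooled pure endosperm was 371-fold higher than the dme library (counting interval 217 to 696) and 1293-fold higher than the fie library (442 to 6274). IPT6 fell by 9.48 ± 0.98 on the log2 scale with a dme mother (SE, adjusted p = 4.0e-07) and fell by 11.10 ± 1.09 with a fie mother (SE, adjusted p = 9.1e-08), and it fell in all 16 alternative analyses of each. Each mutant is 1 library, whose spread was taken from the replicated groups. Both comparisons use the same pure endosperm libraries, so they are not independent.

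Seed coat is maternal tissue, and its markers were higher in the dme and fie libraries, so paternal reads were also examined alone. In paternal CPM, the paternal reads of a gene scaled to all paternal reads of the library, IPT6 was at 171, 1399 and 1015 in pure and at 2406 and 1045 in full endosperm. It was at 0, 17.4 and 17.1 paternal CPM in embryo, 13.5 in dme and 3.51 in fie. On this scale as well, both mutant libraries lay below every wild-type endosperm library. In paternal reads alone IPT6 fell by 7.35 in dme (log2, adjusted p = 2.4e-12) and fell by 8.30 in fie (adjusted p = 9.6e-14). The endosperm marker EPR1 was low in the same libraries, at 451 CPM in dme and 73.5 CPM in fie against 11752 to 207133 CPM in wild-type endosperm. Within each library, IPT6 had 6.16 reads per 1000 EPR1 reads in dme and 10.8 in fie, 15.9, 13.2 and 7.92 in pure and 7.91 and 7.44 in full endosperm, 11.4 in met1, and 13.1 and 3.52 in embryo replicates 2 and 3. This ratio thus lay between 3.52 and 15.9 in every library with an IPT6 read. Against the endosperm regulators ZOU and ALE1 together it did not: the IPT6 reads per ZOU or ALE1 read were 0.0371, 1.01 and 0.757 in pure and 6.24 and 2.25 in full endosperm, 7.82 in met1, 0.0537 in dme and 0.0105 in fie. The 2 lowest EPR1 levels outside embryo were those of the mutant mothers, and what part the endosperm's state had in the fall of IPT6 was not tested.

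**Figure D2:**
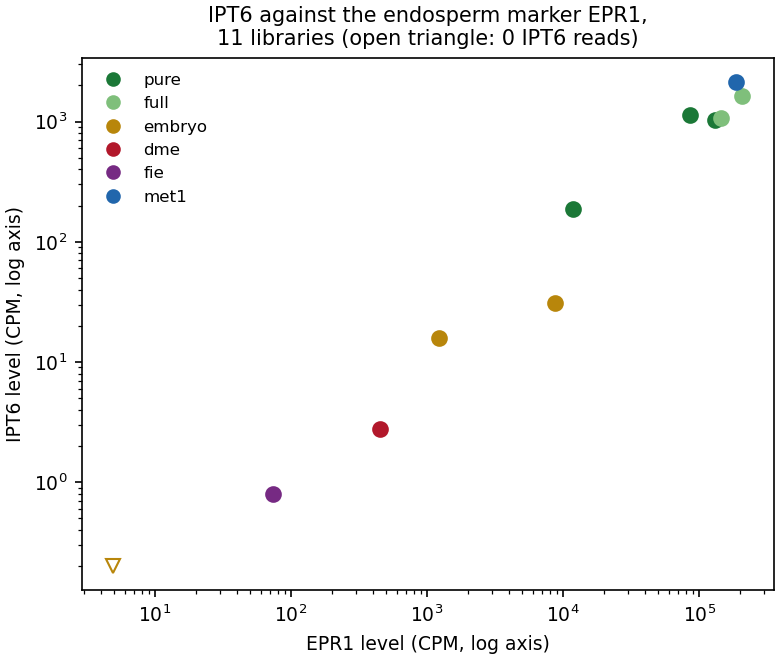
IPT6 level against the level of the endosperm marker EPR1 (both in CPM, log axes), 1 point per library coloured by group, with an open triangle for the embryo library with 0 IPT6 reads. The fie and dme points lie at the lower left, embryo replicates 2 and 3 lie between, and the met1 and full endosperm points lie at the upper right.

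The met1 library had the highest IPT6 level of all, 2131 CPM from 2253 reads. It lay above the 1639 CPM of full endosperm replicate 1 and above the 1037 CPM of pure endosperm replicate 3, its cross direction. The log2 difference from pure endosperm was 0.60, with an interval of -0.60 to 1.79, and was not called. As met1 is 1 library, the spread behind this interval was taken from the replicated groups. Its maternal share was 73.8% (71.9% to 75.6%), against 67.6% in pure and 72.2% in full endosperm of the same direction. The parent term differed from that of pure endosperm by 0.29 ± 0.36 (SE, adjusted p = 0.770; 2.71% of genes called). In the dme library, 6 of 13 IPT6 reads were maternal (46.2%, interval 19.2% to 74.9%), and the parent term differed from wild type by -0.94 ± 0.82 (SE, adjusted p = 0.387; 47.4% of genes called). Over all genes the maternal share was 73.6% in the met1 library, 88.9% in dme and 77.3% in fie. In the fie library all 3 reads were paternal, an interval of 0 to 70.8% for the maternal share. That interval includes the genome dose but not the share over all genes. The fitted difference there was -4.83 ± 1.81 (SE, adjusted p = 0.0457; 17.5% of genes called), it rests on those 3 reads, and it was called in 5 of 12 alternatives. Fewer maternal reads than in wild type were called for 0.658% of genes there. Without embryo replicate 1 its adjusted p was 0.0869, without embryo replicate 2 0.102, and without full endosperm replicate 1 or 2 0.0553 and 0.0552. Ordered by group mean, IPT6 thus stood highest in met1, then in full and pure endosperm, then in embryo, and lowest in dme and fie. Neither met1 nor full endosperm was called different from pure endosperm, which does not show that their levels were equal. Embryo replicate 1, with 0 reads, lay below both mutant libraries, and embryo and the mutants were not compared by a test.

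IPT4 was read in the libraries of dme and fie mothers alone. It had 28 reads (5.99 CPM, counting interval 3.98 to 8.65) in the dme library and 115 reads (30.5 CPM, 25.2 to 36.6) in the fie library. The 8 wild-type libraries and the met1 library had 0 IPT4 reads among 20209357, which allows 0.148 CPM over all 9. Pooled pure endosperm, with 0 of 5898716 reads, allows 0.509 CPM, so IPT4 was at least 11.8-fold higher in the dme library and at least 60.0-fold higher in the fie library. IPT4 passed the low-count filter only through the dme and fie libraries, where it was high. Its calls there are therefore no support beyond the read counts. The fitted log2 difference was 6.63 ± 2.28 (SE) in dme and 9.07 ± 1.98 (SE) in fie. IPT4 was higher in all 16 alternatives for dme, by 5.85 to 7.35, and was called in 12. It was not called in DESeq2, with cross direction in place of library set, or without embryo replicate 2 or pure endosperm replicate 2. For fie it was higher in all 16, by 7.77 to 9.36. The call was made in 14 of 16, and not in DESeq2 or without pure endosperm replicate 3. In paternal reads alone IPT4 was at 34.7 paternal CPM in dme and 58.4 in fie.

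Of the IPT4 reads, 10 of 28 were maternal in dme, or 35.7% (exact interval 18.6% to 55.9%), and 65 of 115 in fie, or 56.5% (47.0% to 65.7%). Both intervals lay below the genome dose of 66.7%, and below the maternal share over all genes of the same library, 88.9% in dme and 77.3% in fie. The Col allele gave 35.7% of the reads in dme, with a Col mother, and 43.5% in fie, with a Ler mother. With no wild-type read of IPT4, its ecotype and parent effects could not be estimated.

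The remaining synthesis genes gave almost no reads. IPT3 had 1 paternal read, in full endosperm replicate 1. IPT1, IPT5, IPT7 and IPT8 had 0 reads in every library, which allows 0.105 CPM over the 28651561 reads of all 11 libraries if they hold a usable ecotype difference. IPT8, known from the chalazal endosperm as IPT4 is, therefore gave no value in the libraries where IPT4 was read.

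The breakdown gene CKX2 was near 0 in wild type and high in dme and fie. It had 0, 5 and 3 reads in pure endosperm replicates 1, 2 and 3, or 0, 1.85 and 1.06 CPM. It had 9 and 16 reads in full endosperm, or 1.97 and 3.31 CPM, and 0 reads in the 3 embryo libraries and in the met1 library. In the dme library it had 428 reads and 91.5 CPM (counting interval 83.1 to 100.6), and in the fie library 637 reads and 169 CPM (156 to 183). Both mutant libraries lay far above every other library, and the wild-type endosperm libraries overlapped each other. Pooled over libraries, CKX2 was 67.5-fold higher in dme than in pure endosperm (33.9 to 157) and 125-fold higher in fie (62.9 to 290), against 8 wild-type reads. Like IPT4, CKX2 passed the low-count filter only through the dme and fie libraries. Its calls there are therefore no support beyond the read counts. The fitted log2 difference of CKX2 was 5.23 ± 0.75 (SE) in dme and 6.08 ± 0.78 (SE) in fie, and it was higher in all 16 alternatives of each. In paternal reads alone CKX2 was at 86.7 paternal CPM in dme and 365 in fie, against 0 to 1.22 in wild-type endosperm. The log2 differences in paternal reads were 5.97 and 7.62.

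Against embryo, CKX2 was called higher in pure endosperm (adjusted p = 0.0384) on 8 reads against 0, a level at least 1.75-fold higher. That call was lost in 8 of 16 alternatives, among them those without pure endosperm replicate 2 (adjusted p = 0.194), without embryo replicate 2 (0.341) and without embryo replicate 3 (0.0799). From pure to full endosperm the log2 difference of CKX2 was 0.57, with an interval of -0.87 to 2.02 (adjusted p = 0.677). The met1 library, with 0 reads, allows up to 2.84 CPM of CKX2, which spans the wild-type levels of pure endosperm.

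The parental shares of CKX2 differed between the mutant libraries. In dme, with a Col mother, 383 of 428 reads were maternal, or 89.5% (exact interval 86.2% to 92.2%), against 88.9% over all genes of that library. In fie, with a Ler mother, 325 of 637 reads were maternal, or 51.0% (47.1% to 55.0%), against 77.3% over all genes. The dme share lay above the genome dose and the fie share below it. Counted by ecotype, the Col allele gave 89.5% of CKX2 reads in dme and 49.0% in fie. Because the mutant mothers were of different ecotypes and wild type gave few reads, an effect of the parent, the ecotype and the mutation on these shares cannot be told apart. In wild-type full endosperm, 9 of 9 reads in Col × Ler and 15 of 16 in Ler × Col were maternal. With a minimum of 10 reads per cross direction CKX2 could not enter that test, and with a minimum of 1 its log2 departure from the dose was 3.52 ± 1.13 (SE, adjusted p = 0.0186). In that test 1715 of 13630 genes were called more maternal and 59 less, with a median of 0.51. Seed coat markers, of maternal tissue, summed to 8785 to 12051 CPM in full endosperm against 620 to 3887 CPM in pure endosperm, and their part in this share was not tested. In pure endosperm 6 of 8 reads were maternal, and the departure was 0.45 ± 1.30 (SE, adjusted p = 1).

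**Figure D3:**
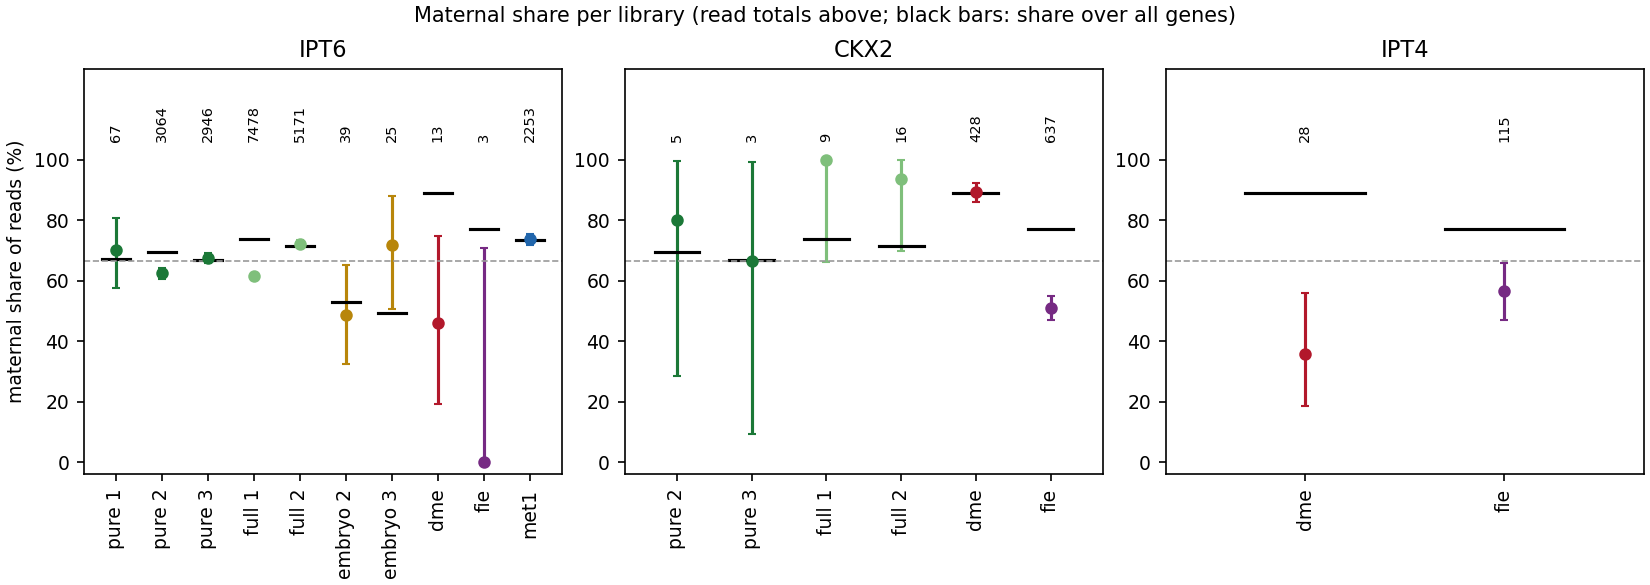
Maternal share of reads (%) of IPT6, CKX2 and IPT4 in each library with a read of the gene, with exact 95% binomial intervals, read totals above the points, the share over all genes of the library as black bars and the endosperm genome dose of 66.7% as a dashed line. IPT6 lies near the dose in wild-type endosperm, and CKX2 lies at 89.5% in dme and 51.0% in fie.

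Of the 8 genes, 2 could be tested between pure endosperm and embryo, and 3 in each of dme and fie. IPT4 and CKX2 entered the tests only through the dme and fie libraries, where they were high. Their calls in dme and fie therefore cannot be weighed against the shares of all genes, which are given for reference. Both genes tested against embryo (IPT6 and CKX2) were called higher in pure endosperm, where 13.7% of all tested genes were called higher and 9.78% lower. In each of dme and fie, 2 were higher (IPT4 and CKX2) and 1 was lower (IPT6), where 14.1% of tested genes were higher and 12.9% lower in dme, and 15.8% higher and 14.0% lower in fie. Between full and pure endosperm 6.21% of genes were higher and 4.72% lower, and between met1 and wild type 2.24% were higher and 1.39% lower. None of the 2 members tested there was called by edgeR or DESeq2 in those 2 comparisons, and none had an unadjusted p under 0.05 in edgeR.

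The genes whose levels ran closest to each member over the 11 libraries were taken by Pearson r of log2(CPM + 1) among 12594 genes, as a description. For IPT6 these were AT5G20790 (r = 0.993), the cytochrome P450 gene CYP81D7 (r = 0.992) and E12A11 (r = 0.987). CYP81D7 had 586 to 1466 CPM in pure endosperm, 3.29 to 87.9 CPM in embryo, 10.3 CPM in dme, 3.98 CPM in fie and 1902 CPM in met1, so it shared the order of IPT6 levels at the group scale. For CKX2 they were AT2G02515 (r = 0.994), the small GTPase gene RABA4C (r = 0.988) and the MADS-box gene AGL52 (r = 0.986). AT2G02515 had 601 CPM in dme and 977 CPM in fie, and at most 7.87 CPM in any other library. For IPT4 they were AT5G53910, the auxin response factor gene ARF13 and AT2G43440, each with reads in dme and fie alone, so that their likeness rests on 2 libraries and r is not informative.

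The wider cytokinin pathway was described through 63 genes in 11 lists by role, of which 40 had a read and 29 had at least 10. The HAIKU pathway gene MINI3, counted among them in dme and fie, entered the tests only because it was high there. From embryo to pure endosperm, 6 of 22 tested genes were higher and 4 lower (13.7% and 9.78% of all genes), with a median log2 difference of 0.38 against 0.05 over all genes. In dme 7 of 24 were higher and 5 lower (14.1% and 12.9% of all genes), with a median of 0.64 against 0.15, and in fie 4 of 24 were higher and 4 lower (15.8% and 14.0%, so near the background), with a median of 0.57 against 0.21 (-0.13 when groups with 0 reads are set to their limit of 3 reads). In full against pure endosperm 2 of 23 were higher (6.21% of all genes) and none lower by edgeR (4.72%), with a median of 0.09 against 0.11 (-0.45 with such groups at their limit). In met1, 1 of 20 was lower (1.39% of all genes) and none higher by edgeR (2.24%), with a median of 0.12 against -0.07.

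Other enzymes of synthesis and breakdown moved in part differently from the 8 genes. IPT2, which acts on tRNA and so gives cytokinin through another route, had 0, 4.81 and 4.93 CPM in pure endosperm, 32.1 CPM in dme and 46.7 CPM in fie, and rose by 2.10 (log2, adjusted p = 0.0228) and 2.68 (adjusted p = 0.00368). Both mutant libraries lay above all wild-type libraries for this gene, and the other tRNA enzyme, IPT9, was not called in any comparison of levels. CKX3, a second cytokinin oxidase, had 11.2, 3.70 and 4.93 CPM in pure endosperm, 1.97 and 6.63 CPM in full endosperm, 0 reads in embryo, dme and met1, and 1 read in fie. Pure endosperm was at least 6.11-fold above embryo for CKX3 (adjusted p = 0.00192) and dme at least 7.40-fold below pure endosperm (adjusted p = 0.0103), and CKX3 fell in fie (adjusted p = 0.0112; pure endosperm 17.9-fold higher, counting interval 2.96 to 731), opposite in direction to CKX2 in both mutants. In paternal reads alone the CKX3 calls in the mutants were lost (adjusted p = 0.226 in dme and 0.0951 in fie). CKX6 fell by 2.16 from embryo to pure endosperm (log2, adjusted p = 0.0113), with 9.90 to 28.0 CPM in embryo and 0 to 4.07 in pure endosperm. CYP735A1, which makes trans-zeatin forms, had 25.1, 5.56 and 5.99 CPM in pure endosperm and 0 to 1.24 CPM in embryo, and rose by 3.79 (log2, adjusted p = 0.00207; 0.114 in paternal reads alone). The LOG enzymes, which release active cytokinin, had no gene with enough reads to test.

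Among genes that modify or carry cytokinin, the O-glucosyltransferase gene UGT85A1 had 0 reads in pure endosperm, 3.95 and 1.04 CPM in full endosperm and 22.9 CPM in dme, at least 45.0-fold above pure endosperm (adjusted p = 0.000834). In paternal reads alone that call was lost (adjusted p = 0.113). UGT85A1 was also called lower in pure endosperm than in embryo, on 0 against 12 reads (at least 6.11-fold, adjusted p = 0.0260, called in 9 of 16 alternatives), and higher in full than in pure endosperm (at least 4.82-fold, adjusted p = 0.0327, called in 7 of 15). UGT76C1, an N-glucosyltransferase gene, fell by 1.58 from embryo to pure endosperm (log2, adjusted p = 0.0134, called in 11 of 16 alternatives) and fell by 2.90 in dme (log2, adjusted p = 0.00558; 0.136 in paternal reads alone). PUP14, which takes up cytokinin at the cell membrane, had 2.79 to 5.93 CPM in pure endosperm, 18.9 and 51.2 CPM in full endosperm, 64.6 CPM in dme and 43.0 CPM in fie. It rose by 2.20 in full endosperm (adjusted p = 0.00662; 0.230 in paternal reads alone), by 2.96 in dme (adjusted p = 0.00063) and by 1.93 in fie (adjusted p = 0.0206; 0.146 in paternal reads alone). ENT3, a nucleoside transporter gene, had 0 to 6.67 CPM in pure endosperm and 165 CPM in dme, where it rose by 4.62 (log2, adjusted p = 0.00139; 0.228 in paternal reads alone). ABCG14, a cytokinin exporter gene, had 9 reads in pure endosperm and 0 in dme, at least 2.38-fold lower (adjusted p = 0.0462), and was called in 4 of 15 alternatives. The call of PUP14 in dme held in paternal reads alone, with a log2 difference of 2.89. Seed coat markers were higher in the same full endosperm, dme and fie libraries, and their part in these levels was not tested.

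**Figure D4:**
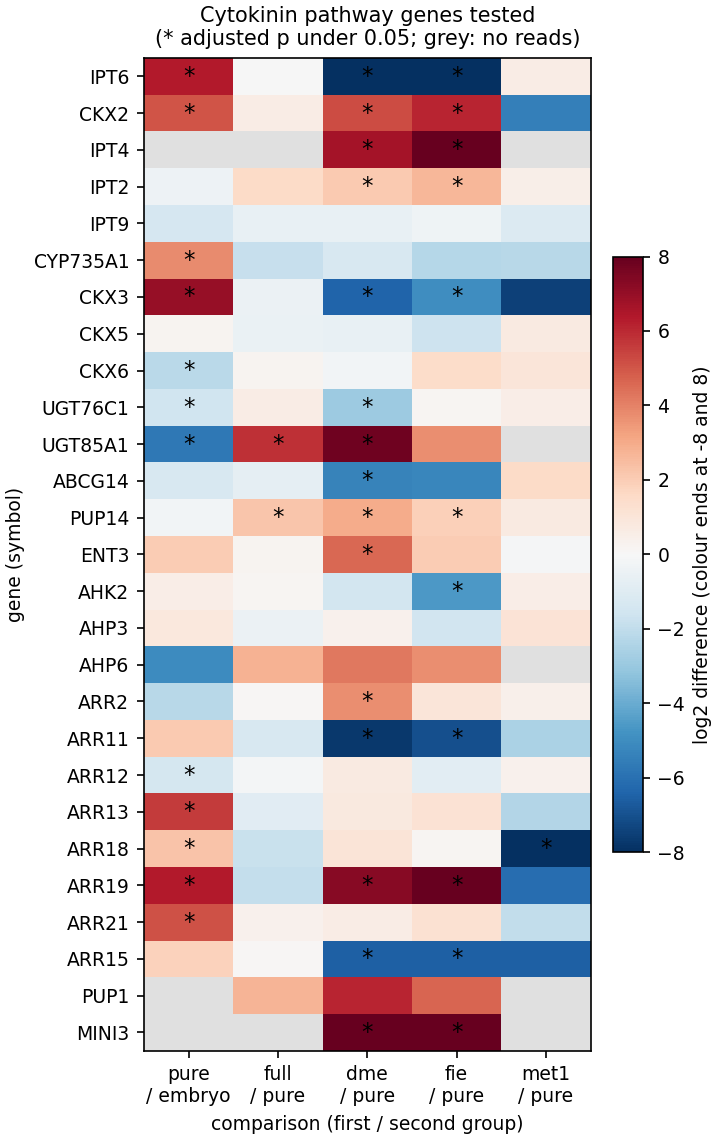
Fitted log2 differences of the members and of the pathway genes tested (rows) in 5 comparisons of levels (columns), with red for higher and blue for lower in the first group, grey where neither group had a read and a star for an adjusted p under 0.05. IPT4, CKX2, ARR19 and MINI3 are red and starred in both mutant-mother columns, and IPT6, CKX3, ARR11 and ARR15 are blue and starred there.

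On the signalling side, the receptor gene AHK2 fell in fie, from 2.79 to 5.63 CPM in pure endosperm to 1 read (pooled ratio 19.2, counting interval 3.18 to 782; adjusted p = 0.00754, and 0.212 in paternal reads alone). Type B response regulators are transcription factors that switch on cytokinin targets. Of 7 tested, 4 were higher in pure endosperm than in embryo and 1 was lower (13.7% and 9.78% of all genes). ARR21 had 103, 21.1 and 43.7 CPM in pure endosperm and 0 to 2.47 CPM in embryo, and rose by 5.07 (log2, adjusted p = 4.2e-07). ARR13 had 589, 86.3 and 133 CPM against 0 to 14.9 CPM and rose by 5.57 (adjusted p = 0.000183). ARR19 had 14.0, 1.11 and 2.11 CPM in pure endosperm and 0 reads in embryo (adjusted p = 0.00135), and it reached 283 CPM in dme and 1035 CPM in fie. These ARR19 levels were 119-fold and 436-fold above pooled pure endosperm, with log2 differences of 7.30 (adjusted p = 4.5e-07) and 8.06 (adjusted p = 1.1e-07), and both calls held in paternal reads alone. Without pure endosperm replicate 3 the adjusted p in fie was 0.0575. ARR11 was the reverse, with 2.79, 8.15 and 3.87 CPM in pure endosperm and 0 reads in dme and fie, at least 8.98-fold and 7.24-fold lower (adjusted p = 0.00119 and 0.00558). ARR2 rose by 3.73 in dme (log2, adjusted p = 0.0199), to 12.6 CPM from 0.35 to 2.79 CPM in pure endosperm. ARR18 had 11.6 to 23.3 CPM in pure endosperm and 0 reads in met1 (adjusted p = 0.0365; called in 10 of 16 alternatives, and 0.226 in paternal reads alone). ARR15, a type A response regulator that damps the signal, had 8.38, 3.33 and 3.17 CPM in pure endosperm and 0 reads in dme and fie (adjusted p = 0.00578 and 0.00906).

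Of the HAIKU pathway, MINI3 (WRKY10), a transcription factor known to act on CKX2, was, like IPT4, read in dme and fie alone. It had 270 reads (57.7 CPM) in dme and 118 reads (31.3 CPM) in fie, and 0 reads in the other 9 libraries. MINI3 was thus higher in dme than in fie, whereas IPT4 was higher in fie. MINI3 was at least 114-fold higher in dme and at least 61.6-fold higher in fie than in pooled pure endosperm. Like IPT4, MINI3 passed the low-count filter only through the dme and fie libraries. Its calls there are therefore no support beyond the read counts. Those calls were lost in DESeq2, in dme without pure endosperm replicate 2 and in fie without replicate 3. Its paternal reads were 69 of 270 in dme and 59 of 118 in fie. AGL62, a MADS-box gene of the syncytial endosperm, had 123 CPM in dme and 95.6 CPM in fie and at most 3.29 CPM elsewhere. CKX2, IPT4, MINI3 and ARR19 also had their highest levels in the dme and fie libraries. The endosperm markers EPR1, ZOU and ALE1 went the other way, but the markers did not all move in 1 direction. EPR1 was low there, and ZOU and ALE1 together had 51.8 CPM in dme and 75.7 CPM in fie, against 1128 to 5043 CPM in pure endosperm. Over the 8 endosperm markers tested, the median log2 difference was -1.40 in dme and 1.99 in fie. The stage of the endosperm in the mutant seeds was not recorded in the labels beyond days after pollination, and its part in these levels was not tested.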

How the data were processed

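Counts per gene of reads that matched Col or Ler with fewer mismatches were deposited for 11 libraries. The readme beside the files names cDNA models as the alignment target, and Bowtie was used, per the submitters' processing notes. The version, the annotation, strand use and the handling of multiply matching reads were all not given in the sources used here. Columns were renamed maternal and paternal by cross. Gene symbols came from the TAIR10.1 gene table, where 27688 identifiers matched.

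The sum of both counts was tested with edgeR 4.0.16 in R 4.3.3 (TMM, filterByExpr, robust quasi-likelihood, library set as a covariate) in 1 fit of all libraries. Parental counts were tested with terms for library, parent and ecotype and at least 10 reads per cross direction. Benjamini-Hochberg adjustment covered all genes tested, and calls have an adjusted p under 0.05. Both fits were tested on simulated data, with changes set between pure endosperm and embryo and in the parental bias of pure endosperm. The mutant comparisons were not tested in this way. Intervals of log2 differences are 1.96 SE each side. Intervals of shares (exact binomial), levels and fold ratios (exact Poisson) are at 95% and, like the limit of 3 reads for a count of 0, cover counting error only, since reads are not independent molecules.

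Since no label ties replicates to separate plants, p-values cover only the spread between these libraries. Replicates are numbered in accession order and differed by more than sampling noise (chi-square over its degrees of freedom 16.4 to 74.1 in 7 pairs). The 8 genes and the lists were chosen with earlier results of these data known. Named pathway genes are at most the 3 called members of a list with the smallest p per comparison of levels, and 2 per parental comparison. AGL62 and ATML1 are named from the marker lists, and ARR18 in met1 is the 1 gene called there.

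Alternatives were RLE factors, library totals alone, no filter, DESeq2 1.42.0, cross direction or nothing in place of library set, minimum counts of 30 and 1, the median ratio over genes as the reference ratio, no LCM-titled libraries and each wild-type library left out. The test of paternal reads alone was added after the data were seen.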

Additional observations from a re-analysis of the deposited data

Results flagged for a closer look

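The maternal bias of 4 genes in a mutant library differed from that in wild-type pure endosperm by a test of the difference itself. For IPT6 the log2 difference in fie was -4.83, on 3 reads in that library, all paternal. For the cytokinin importer gene PUP14 it was 2.48 in dme, where 281 of 302 reads were maternal, against 13 of 16 and 12 of 16 in pure endosperm replicates 2 and 3. For the nucleoside transporter gene ENT3 it was 8.92 in fie, where 62 of 62 reads were maternal, against 13 of 18 in pure endosperm replicate 2. That replicate is Col × Ler, while fie is Ler × Col. With 19 ENT3 reads in all of pure endosperm, the Ler × Col direction gave almost no wild-type reads of pure endosperm for this comparison. All genes together had a median difference of 1.69 in dme and 0.93 in fie, and 47.4% and 17.5% of them were called. The IPT6 call was made in 5 of 12 alternatives, the PUP14 call in 5 of 12 (0.79 to 3.76) and the ENT3 call in 7 of 11 (5.28 to 11.69).

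The response regulator gene ARR21 differed by 1.88 in fie (adjusted p = 0.00372, called in 11 of 13 alternatives) and by 3.25 in met1 (adjusted p = 0.0489, called in 6 of 13), where 2.71% of all genes were called. Its Col allele gave more reads in wild-type endosperm (log2 Col over Ler 1.64, adjusted p = 1.4e-12). Maternal shares of ARR21 were 73.0% and 68.4% in the pure endosperm libraries with a Col mother and 29.0% in the one with a Ler mother, and 75.5% and 16.9% in full endosperm of the same 2 directions. With a Ler mother the share was 53.6% of 686 reads in fie and 75.0% of 16 reads in met1.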

How the results depend on the processing

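Of the calls on IPT6 and CKX2 in dme and fie and of IPT6 between pure endosperm and embryo, every one kept its direction and its side of the threshold in all 16 alternatives. For CKX2 this is no support beyond the read counts. It passed the low-count filter only through the dme and fie libraries, and every alternative used those same libraries. From pure endosperm to embryo, 2 of the 8 genes were called, and 1 with cross direction in place of library set, with no library set, with library totals alone, in DESeq2, in paternal reads alone and, of the analyses without 1 library, 1 to 2. CKX2, with 8 reads, is the gene lost. For parental bias, 1 gene was called in full endosperm with a minimum of 1 read (CKX2; otherwise 0) and 1 in dme with the median ratio of all genes as reference (IPT6, log2 -2.52, adjusted p = 0.0219, on 13 reads). For fie, the 1 gene called (IPT6) became 0 in DESeq2, with a minimum of 1 read and without both LCM-titled libraries, and 0 to 1 without 1 library.

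Values near 0 that were not called changed sign. IPT6 in full against pure endosperm was 0.67 with cross direction, 0.58 with no library set, 0.21 with library totals alone, 0.012 with RLE factors, 0.10 without the LCM-titled libraries and 0.40 in paternal reads alone, and -0.76 to 0.47 without 1 library. CKX2 there was -1.31 in paternal reads alone and -0.062 to 1.20 without 1 library. The parental bias of IPT6 was -0.45 in full endosperm and -0.35 in met1 with the median ratio, and without 1 library it was -0.10 to 0.21 in pure endosperm, -0.23 to 0.28 in full endosperm and -0.075 to 0.43 in met1. The cause was not tested.

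Library totals alone, in place of TMM, moved the median log2 difference of all genes from 0.05 to -0.41 between pure endosperm and embryo, from 0.11 to 0.37 between full and pure endosperm, from 0.15 to 0.94 in dme, from 0.21 to 0.86 in fie and from -0.07 to 0.14 in met1. The split into higher and lower calls moved from 1726 and 1232 to 1139 and 2194, from 782 and 595 to 957 and 284, from 1775 and 1630 to 3291 and 963, from 1990 and 1763 to 3221 and 1178, and from 282 and 175 to 280 and 62. All-gene calls ranged over the alternatives from 1455 to 3333 between pure endosperm and embryo, from 61 to 1833 between full and pure endosperm, from 1648 to 4254 in dme, from 1482 to 4399 in fie and from 3 to 875 in met1. Parental calls ranged from 79 to 380 in pure endosperm, 435 to 2137 in full endosperm, 1 to 57 in embryo, 1102 to 3641 in dme, 678 to 1605 in fie and 59 to 295 in met1.

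No paired analysis by replicate number was possible because the labels carry none. Library set, which joins 1 pure endosperm and 1 embryo library of the same cross and title, was a covariate in the fit of levels and so blocks that comparison; the values with no library set are given above. With embryo replicate 3 left out, the parental bias of embryo could not be fitted. Each mutant is 1 library, and reads at genes without an ecotype difference were not counted.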
